A study of Mus musculus with 4 samples.

Results

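The 10 genes described here encode Polycomb repressive complex 2 (PRC2), the enzyme complex that methylates lysine 27 of histone H3 (H3K27), and the demethylases that take this mark away. They are Ezh1, Ezh2, Eed, Suz12, Mtf2, Phf19, Jarid2 and Aebp2 for the complex, and Kdm6a and Kdm6b for the demethylases. They were taken by symbol for the known function of their products. All 10 were among the 55401 genes listed in the count data, and 9 of them passed the filter on low counts. Gene-level RNA-seq counts were compared between NSD1B WT and NSD1B KO mice, with 2 libraries for each genotype. The cells were B220+ B cells sorted from spleens of C57BL/6J mice. NSD1B WT mice were Mb1-Cre+ NSD1+/+ and NSD1B KO mice were Mb1-Cre+ NSD1fl/fl, so that both genotypes carried the Cre transgene. Mb1-Cre is driven by the promoter of Cd79a and acts in the B lineage from its early stages, and the floxed allele loses a block of internal exons. The control mice were littermates, and the Methods give an age of 7 to 9 weeks and both sexes for the study's mice in general, but the sex and the number of the mice behind each library are not stated there or in the labels. The p-values therefore measure the spread between these libraries, which may be technical.

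PRC2 adds methyl groups to H3K27 through 1 of 2 alternative catalytic subunits, EZH2 or EZH1. EED reads the finished mark, and SUZ12 holds the complex together. In one form of the complex MTF2, PHF19 or PHF1 bind DNA rich in CpG, and in the other form JARID2 and AEBP2 take their place. EZH2 is known for its high level in dividing cells, germinal centre B cells included, whereas EZH1 persists in resting cells. NSD1 dimethylates lysine 36 of the same histone tail, and methylation there hinders PRC2 on that tail. KDM6A and KDM6B oppose PRC2 by removing methyl groups from H3K27. No histone mark and no protein was measured in these libraries, only RNA.

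The libraries held 6769118 to 7566834 counts on genes. Nsd1 itself had 497 and 480 counts in NSD1B WT and 284 and 280 in NSD1B KO. The B cell label was checked against its markers, and all 7 B cell markers were counted, with a summed level of 12567 to 12792 CPM (TMM-scaled counts relative to library size) in NSD1B WT and 11093 to 12088 CPM in NSD1B KO. Of the 7, none was called higher, 5 were lower and 2 were not called. Most of the sum came from Cd79b, at 6863 and 6770 CPM in NSD1B WT and 8527 and 7773 CPM in NSD1B KO, while Cd79a, its partner in the B cell receptor, had a log2 fold change of -1.33 and Ms4a1 (CD20) one of -0.57. Pax5, the transcription factor that keeps B cell identity, had 279 and 342 counts in NSD1B WT against 30 and 31 in NSD1B KO. Myeloid markers (6 of 6 counted, 4 higher and 2 lower) summed to 4564 to 4666 CPM in NSD1B WT and 5715 to 6067 CPM in NSD1B KO. Lyz2 alone gave 4441 and 4531 CPM of this in NSD1B WT and 5886 and 5535 CPM in NSD1B KO, whereas Itgam was lower (-0.80) and S100a8 went from 39 and 28 counts to 0. Erythroid markers (4 of 5 counted) summed to 26.1 to 28.9 CPM and 1301 to 1554 CPM, and T cell markers (3 of 5 counted, Cd4 and Cd8a at 0) to 23.9 to 26.8 CPM and 49.7 to 51.9 CPM. These lists moved with genotype, as the genes below did, and their part in the results was not tested. In bulk RNA, fewer cells of a type and less RNA per cell cannot be told apart.

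A gene was called changed when its fold change was above 1.2 and its adjusted p was below 0.05 in the quasi-likelihood test of edgeR, adjusted by Benjamini-Hochberg over all 11657 genes tested. By this rule 6 of the 10 genes were higher in NSD1B KO (Ezh1, Eed, Suz12, Jarid2, Kdm6a and Kdm6b), 2 were lower (Ezh2 and Aebp2), Mtf2 was not called and Phf19 was too low to test. Calls were common in these libraries. Of all genes tested, 37.1% were higher, 41.1% were lower and 78.2% were called in either direction. The NSD1B KO libraries lay wholly above or wholly below the NSD1B WT libraries for 88% of genes tested, and for 8 of the 9 tested members. The median log2 fold change was 0.96 over the 9 tested members and -0.10 over all genes tested, with genes at 0 placed at their bound in both. The number of calls is therefore read beside the size of each change and its direction. The plot of values by library shows each gene in the 4 libraries.

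**Figure D1:**
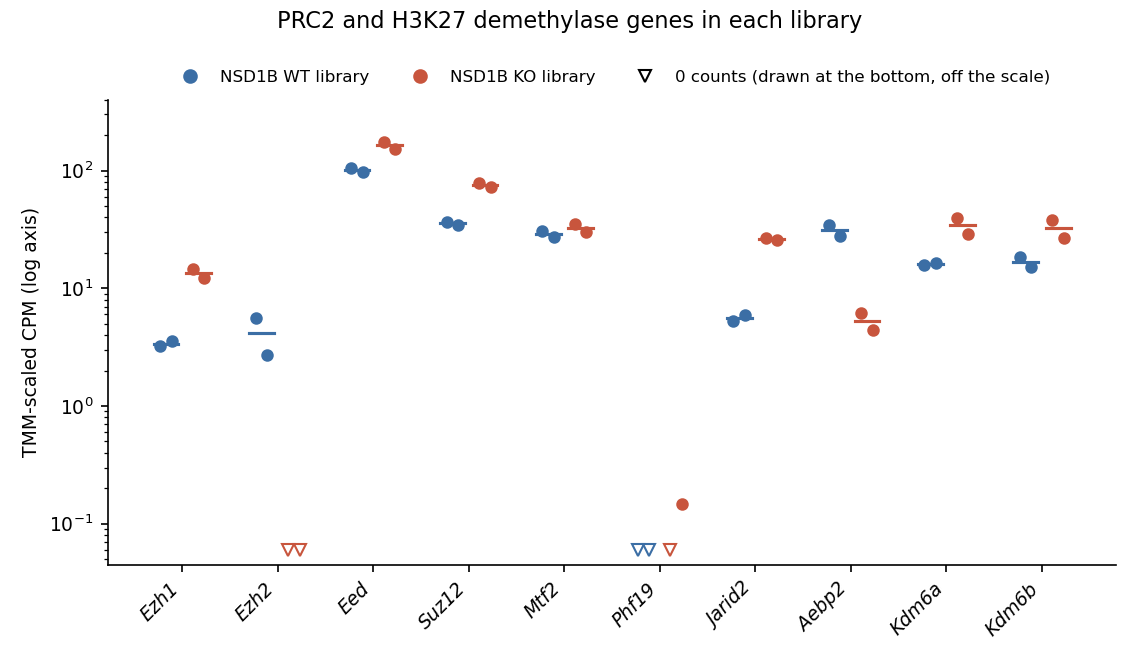
Level of each of the 10 genes in the 4 libraries, in CPM scaled by TMM on a log axis, with NSD1B WT and NSD1B KO libraries as separate points and libraries with 0 counts drawn at the bottom, off scale. Ezh2 is at 0 in both NSD1B KO libraries, Aebp2 falls from 31.2 to 5.28 CPM, Jarid2 rises from 5.59 to 26.2 CPM, and the points of Mtf2 overlap.

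The catalytic subunits moved in opposite directions. Ezh2, which encodes the main methyltransferase of dividing cells, had 40 and 20 counts in the NSD1B WT libraries and 0 in both NSD1B KO libraries. Both NSD1B WT libraries were thus low for this gene and differed 2-fold, while neither NSD1B KO library gave a count. The mean level was 4.16 ± 2.02 CPM (SD, n = 2) in NSD1B WT, and the limit that 3 counts over the group allow in NSD1B KO was 0.2152 CPM. From the pooled NSD1B WT counts, Ezh2 was therefore at least 19.3-fold lower in NSD1B KO (edgeR adjusted p = 2.05e-09). This bound leaves out the spread between the NSD1B WT libraries, which stood at 5.59 and 2.73 CPM. It is smaller for the second library alone. Zero in both NSD1B KO libraries was common at this level. Of protein-coding genes within 2-fold of the level of Ezh2 in NSD1B WT, 28.6% (473 of 1654) were at 0 in both NSD1B KO libraries.

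Ezh1, the methyltransferase known from resting cells, had 23 and 26 counts in NSD1B WT and 105 and 82 in NSD1B KO. Every NSD1B KO library lay above both NSD1B WT libraries, and the mean level rose from 3.38 ± 0.238 to 13.4 ± 1.70 CPM (SD, n = 2). The log2 fold change was 1.98 (SE 0.29, edgeR adjusted p = 2.45e-08), or 3.94-fold. Among genes within 2-fold of its mean level, 47.8% moved as far or farther, up or down. For Ezh2 no such share is given, because its change is known only as a bound.

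Per kilobase of exon, which allows genes to be compared, Ezh1 made up 34.0% of the Ezh1 and Ezh2 level in NSD1B WT replicate 1 (exact 95% interval 22.8% to 46.9%) and 53.9% in replicate 2 (38.5% to 68.8%). In NSD1B KO the share was 100% in both libraries, with lower limits of 96.2% and 95.1%. The intervals of the genotypes did not overlap. They cover counting error only. Set against the scaffold subunit, Ezh1 gained ground. Suz12 exceeded Ezh1 by 17.2-fold and 14.6-fold per kilobase in NSD1B WT, and by 8.04-fold and 8.99-fold in NSD1B KO.

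**Figure D2:**
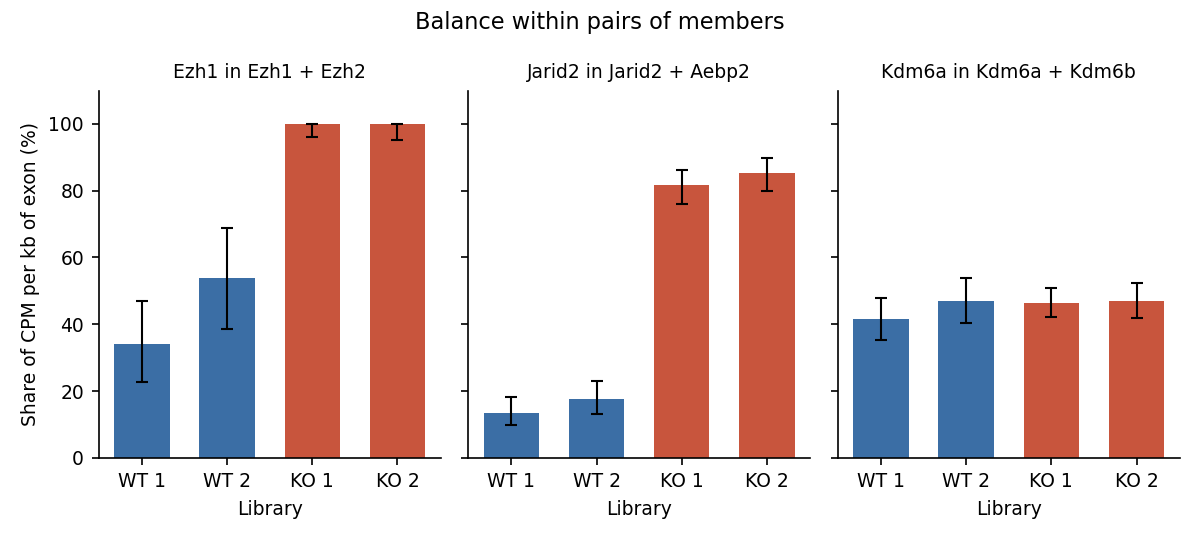
Share of the first gene in the summed level per kilobase of exon for pairs of genes with the same task, in percent for each library (bars), with exact 95% counting intervals as error bars. The Ezh1 share reaches 100% in both NSD1B KO libraries, the Jarid2 share moves from 13.5% and 17.5% to 81.6% and 85.4%, and the Kdm6a share of the demethylases stays between 41.5% and 47.1%.

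Both genes lie on minus strands in mm10 (GRCm38) in the GENCODE M21 annotation. Ezh1 (ENSMUSG00000006920.14) spans chr11:101191115-101226463 with 7440 bases of merged exons, and Ezh2 (ENSMUSG00000029687.16) spans chr6:47530139-47595341 with 6678 bases, of which 174 (2.61%) overlap exons of Gm26625 on the other strand. Their promoter sequences are shown because the genes moved in opposite directions. They come from the RefSeq table on GRCm38.p6, which gave the 250 bases before a transcript start for 9 of the 10 genes, and Kdm6b was not among them. The stretches below hold no annotated exon. That of Ezh1, chr11:101226464-101226713, ends next to the gene's first base, and that of Ezh2, chr6:47595059-47595183, is the exon-free part of its window and lies within the limits of the gene. Both read 5′ to 3′ on the minus strand, with CpG dinucleotides in capitals.
Ezh1 promoter: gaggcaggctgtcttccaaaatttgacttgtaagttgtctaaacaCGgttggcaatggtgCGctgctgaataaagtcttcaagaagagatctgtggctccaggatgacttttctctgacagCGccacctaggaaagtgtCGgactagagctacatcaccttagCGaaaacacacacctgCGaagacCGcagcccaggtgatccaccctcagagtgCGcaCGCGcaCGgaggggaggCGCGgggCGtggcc
Ezh2 promoter: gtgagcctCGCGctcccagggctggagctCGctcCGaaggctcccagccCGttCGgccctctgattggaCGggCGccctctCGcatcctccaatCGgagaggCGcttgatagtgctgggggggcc
The Ezh1 sequence holds 14 CpG in 250 bases and that of Ezh2 11 in 125 bases, and the full Ezh2 window holds 23, against a median of 6 over 32851 promoter windows of that length. The CCAAT box (letters CCAAT, on either strand) was found in the Ezh2 window and in 33.8% of all windows. The other motifs searched, on both strands, were the Sp1 box with the letters GGGCGG, the core of ETS factor sites (CCGGAA), the TATA box written as TATAAA, the cyclic AMP element TGACGTCA, and the E2F site as TTTCCCGC, TTTGGCGC, TTTCGCGC or TTTGCCGC. No motif contains another, and the Ezh1 window held none of the 6. These letter matches are a description of the windows and not of binding.

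Among the tested genes within 2-fold of the mean level of Ezh1 (3565 compared), the pattern over the 4 libraries was nearest for Tnrc6c, 2810013P06Rik and Ddhd2, at distances of 0.0972, 0.116 and 0.129 on the centred log2 scale. For Ezh2 the nearest of 2350 genes were Abtb1, Ccr6 and Zfp654, at 0.095, 0.154 and 0.163. All 3 were also at 0 in both NSD1B KO libraries, which follows from matching them to the pattern of Ezh2. Their counts in NSD1B WT were 38 and 21 for Abtb1, 43 and 23 for Ccr6, which encodes a chemokine receptor of B cells, and 35 and 18 for Zfp654.

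Suz12 and Eed, the partners that the enzyme needs for its activity, both rose. Suz12, the scaffold subunit, had 263 and 252 counts in NSD1B WT and 561 and 490 in NSD1B KO, from 35.6 ± 1.65 to 75.3 ± 3.64 CPM (SD, n = 2). The libraries of the genotypes were far apart, and the log2 fold change was 1.08 (SE 0.11, edgeR adjusted p = 4.86e-12), or 2.12-fold. Eed, the subunit that binds methylated H3K27, had 757 and 715 counts in NSD1B WT and 1270 and 1020 in NSD1B KO. Its level of 102 ± 5.75 CPM in NSD1B WT and 164 ± 17.6 CPM in NSD1B KO gave a log2 fold change of 0.69 (SE 0.09, edgeR adjusted p = 3.28e-09), or 1.61-fold. Neither gene stood out by size, since 33.9% of genes near the level of Suz12 and 40.6% of those near Eed changed as much or more. Per kilobase, Eed exceeded Suz12 by 3.72-fold and 3.67-fold in NSD1B WT, and by 2.92-fold and 2.69-fold in NSD1B KO.

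Suz12 lies at chr11:79993106-80034123 on the plus strand and Eed at chr7:89954654-89980983 on the minus strand. Exons on the opposite strand overlap 178 bases (3.6%) of the Suz12 exons and 261 bases (6.82%) of those of Eed. Of the 50-base words in the Eed exons, 5.82% also occur in another gene. Whether the counting used strand is not stated, so reads from these stretches cannot be assigned with certainty. The Suz12 promoter window held 37 CpG, the most of the 13 windows of these genes, together with an E2F site, a motif found in 1.86% of all windows. Phf19 was the other gene with an E2F site.

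Of the accessory subunits, 1 rose, 1 fell, 1 was not called and 1 was not tested. Mtf2, a Polycomb-like subunit that brings the complex to CpG-rich DNA, had 218 and 199 counts in NSD1B WT and 254 and 203 in NSD1B KO. The libraries overlapped, the mean levels were 28.8 ± 2.32 and 32.7 ± 3.63 CPM (SD, n = 2), and the log2 fold change of 0.18 (SE 0.15, edgeR adjusted p = 0.242) did not pass the test. Of genes within 2-fold of its level, 88.7% changed at least as much. Mtf2 lies at chr5:108065674-108109004 on the plus strand, where Tmed5 on the opposite strand overlaps 395 bases (6.93%) of its exons, and 5.56% of its 50-base words also occur in another gene. Phf19, a related subunit at chr2:34893757-34914026 on the minus strand, had no count in 3 libraries and 1 count in NSD1B KO replicate 2. At this depth that is under the limit of 3 counts in either genotype, which corresponds to 0.2073 CPM in NSD1B WT and 0.2152 CPM in NSD1B KO, and no fold is given.

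Jarid2, which encodes an accessory subunit that can stimulate the enzyme and help recruit it, had 38 and 43 counts in NSD1B WT and 193 and 173 in NSD1B KO. Its level rose from 5.59 ± 0.398 to 26.2 ± 0.787 CPM (SD, n = 2), with a log2 fold change of 2.23 (SE 0.22, edgeR adjusted p = 4.28e-13), or 4.68-fold. Aebp2, the zinc-finger subunit found in the same form of the complex, went the other way, with 246 and 205 counts in NSD1B WT and 44 and 30 in NSD1B KO. Its level was 31.2 ± 4.51 CPM in NSD1B WT and 5.28 ± 1.17 CPM in NSD1B KO, a log2 fold change of -2.55 (SE 0.21, edgeR adjusted p = 4.31e-15), or 5.87-fold lower. The genotypes did not overlap for either gene. At comparable levels, 30.8% of genes changed as much as Jarid2 and 24.2% (914 of 3781) as much as Aebp2. The latter was the smallest share among the tested members with counts in both genotypes.

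Since both proteins join the same form of PRC2, their levels were set against each other within each library. Per kilobase, Aebp2 exceeded Jarid2 by 6.38-fold and 4.70-fold in NSD1B WT, and Jarid2 exceeded Aebp2 by 4.45-fold and 5.85-fold in NSD1B KO. The Jarid2 share of the pair was 13.5% (exact 95% interval 9.77% to 18.1%) and 17.5% (13.0% to 22.9%) in NSD1B WT, and 81.6% (76.1% to 86.3%) and 85.4% (79.8% to 89.9%) in NSD1B KO. The order of the pair was thus inverted in both NSD1B KO libraries.

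Jarid2 lies at chr13:44729474-44921643 and Aebp2 at chr6:140622663-140678472, both on the plus strand, with 9715 and 9851 bases of merged exons. RefSeq lists more than 1 start for each. The sequences below are shown because this pair inverted its order. They are the 250 bases before the first listed start of Jarid2 (chr13:44730524-44730773) and before the start of Aebp2 with the most CpG (chr6:140624659-140624908). Both are on GRCm38.p6, plus strand, with CpG in capitals, and neither stretch holds an annotated exon. Both stretches lie within the limits of their genes.
Jarid2 promoter: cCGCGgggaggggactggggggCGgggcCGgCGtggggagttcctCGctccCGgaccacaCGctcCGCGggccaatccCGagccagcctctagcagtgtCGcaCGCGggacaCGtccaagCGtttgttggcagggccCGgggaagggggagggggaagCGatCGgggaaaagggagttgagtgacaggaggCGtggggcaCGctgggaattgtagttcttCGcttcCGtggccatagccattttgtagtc
Aebp2 promoter: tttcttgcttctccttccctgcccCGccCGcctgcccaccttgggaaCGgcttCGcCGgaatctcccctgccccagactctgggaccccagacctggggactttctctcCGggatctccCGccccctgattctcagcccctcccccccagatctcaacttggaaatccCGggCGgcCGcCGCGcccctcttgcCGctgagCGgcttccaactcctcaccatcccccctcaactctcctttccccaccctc
The Jarid2 sequence holds 23 CpG and that of Aebp2 14. The Sp1 box GGGCGG was found in both, as in 32.7% of all windows. The Jarid2 sequence also held a CCAAT box and the Aebp2 sequence the ETS core CCGGAA, which occurs in 12% of windows. Of the windows before the other Aebp2 starts, the one that ends next to the gene's first base held 1 CpG and none of the motifs. The other held 3 CpG, a CCAAT box and an Sp1 box. The window before the other Jarid2 start held 22 CpG, the ETS core, an Sp1 box and a TATA box. Which motifs differ between these genes thus depends on the starts shown.

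**Figure D3:**
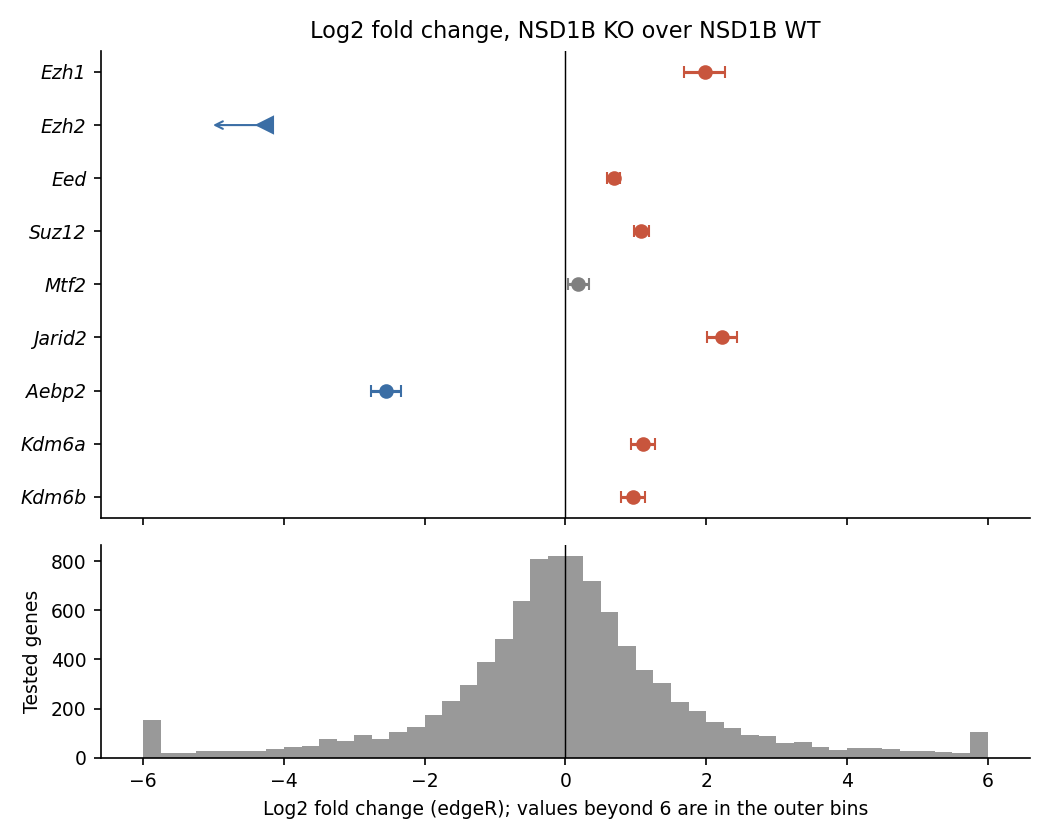
Log2 fold change of NSD1B KO over NSD1B WT for the tested members, with standard errors as bars in the upper panel, and a histogram of the 9454 tested genes that had counts in both genotypes. Aebp2 at -2.55 and Jarid2 at 2.23 are the most distant members with counts in both genotypes, and Ezh2 is given as a bound because it had 0 counts in NSD1B KO.

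Both H3K27 demethylase genes were higher in NSD1B KO. Kdm6a, an X-linked gene whose product (UTX) also belongs to the MLL3/MLL4 methyltransferase complexes, stood at 15.7 and 16.3 CPM in the NSD1B WT libraries and at 39.8 and 28.8 CPM in the NSD1B KO libraries. The mean level rose from 16.0 ± 0.426 to 34.3 ± 7.81 CPM (SD, n = 2), with a log2 fold change of 1.11 (SE 0.17, edgeR adjusted p = 7.12e-08), or 2.15-fold. Kdm6b, whose product JMJD3 is known as an inducible demethylase of activated immune cells, had 131 and 111 counts in NSD1B WT and 274 and 181 in NSD1B KO. Its level rose from 16.7 ± 2.23 to 32.5 ± 7.90 CPM, with a log2 fold change of 0.96 (SE 0.17, edgeR adjusted p = 1.99e-06), or 1.94-fold. For both genes NSD1B KO replicate 1 was well above replicate 2, and both were above the NSD1B WT libraries. Changes as large were found in 46.5% of genes near the level of Kdm6a and in 52.4% (1912 of 3646) of those near Kdm6b. Per kilobase, Kdm6a made up 41.5% and 47.1% of the pair in NSD1B WT and 46.5% and 47.1% in NSD1B KO, so that the libraries overlapped for this share.

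Kdm6a lies at chrX:18162575-18279936 on the plus strand and Kdm6b at chr11:69398508-69413675 on the minus strand, where exons of Kdm6bos overlap 286 bases (4.11%) of its exons. Because Kdm6a is X-linked and has a Y-linked relative, Uty, whose product has very weak demethylase activity, the sex-linked genes are given beside it. Uty had 121 and 113 counts in NSD1B WT and 181 and 164 in NSD1B KO (log2 fold change 0.61, SE 0.17, edgeR adjusted p = 1.35e-03). Only 12 of the 50-base words of Kdm6a (0.14%) also occur in Uty or another gene. Per kilobase, Kdm6a made up 52.0% and 55.2% of the Kdm6a and Uty level in NSD1B WT, and 64.9% and 58.0% in NSD1B KO. Xist, transcribed from an inactive X chromosome, had 47 and 62 counts in NSD1B WT and 1 and 2 in NSD1B KO, and its antisense partner Tsix had 30 and 17 against 0 and 0, at least 15.1-fold lower. The other Y-linked genes were counted in all 4 libraries and differed in direction. Kdm5d was higher in NSD1B KO (log2 fold change 2.05), Eif2s3y was lower (-2.45) and Ddx3y had 624 and 641 counts against 914 and 875. Of their X-linked partners, Ddx3x was higher (0.39), Eif2s3x was lower (-1.75) and Kdm5c had a value of -0.34 (edgeR adjusted p = 0.238). The labels give no sex for the mice, and its part in the value of Kdm6a was not tested.

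Ranked by level per kilobase, the order in NSD1B WT was Eed (26.6 CPM per kb), Suz12 (7.20), Mtf2 (5.06), Aebp2 (3.17), Kdm6b (2.41), Kdm6a (1.90), Ezh2 (0.623), Jarid2 (0.576), Ezh1 (0.455) and Phf19 (0). The libraries of Ezh2 and Jarid2 overlapped, and those of Ezh2 also spanned Ezh1, so that the order of Ezh2 against either is not resolved. In NSD1B KO the order was Eed (42.8), Suz12 (15.2), Mtf2 (5.74), Kdm6b (4.67), Kdm6a (4.09), Jarid2 (2.70), Ezh1 (1.80), Aebp2 (0.536), Phf19 (0.0147) and Ezh2 (0). There Mtf2 and Kdm6b overlapped, as did Kdm6b and Kdm6a. Aebp2 stood above both demethylases in NSD1B WT and below every tested member but Ezh2 in NSD1B KO, whereas Eed kept 55.0% to 55.8% of the summed level of the 10 genes in all 4 libraries. That sum was 50.2 and 45.7 CPM per kb in NSD1B WT and 83.6 and 71.6 in NSD1B KO.

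Other Polycomb and H3K27 genes were then counted in 5 lists of 46 genes, of which 39 were tested. The lists were other PRC2 subunits, Polycomb repressive complex 1, H2A deubiquitinases, the MLL3/MLL4 complex and H3K27 acetyltransferases. The last 2 lists are not Polycomb genes. In NSD1B KO 14 of them were higher, 18 were lower and 7 were not called, with a median log2 fold change of -0.22 against -0.10 over all genes tested. The shares lie near those of all genes, 37.1% higher and 41.1% lower. Of the other PRC2 subunits, 1 rose and 3 fell. Phf1, the relative of Mtf2 and Phf19, had 0 counts in both NSD1B WT libraries and 48 and 56 in NSD1B KO, at least 36.0-fold higher (edgeR adjusted p = 1.86e-12). Of protein-coding genes within 2-fold of the level of Phf1 in NSD1B KO, 16.7% (336 of 2014) were at 0 in both NSD1B WT libraries. Rbbp7, a histone-binding core subunit, had 2344 and 2341 counts against 1616 and 1287 (log2 fold change -0.64, SE 0.08, edgeR adjusted p = 2.00e-09), whereas its close relative Rbbp4 had a value of -0.12 (SE 0.11, edgeR adjusted p = 0.333). Lcorl (-1.41) and Lcor (-1.01), which belong to the same form as Mtf2, were lower, and Epop had no count. Thus the Polycomb-like genes gave a rise of Phf1, no call for Mtf2 and no measurable Phf19.

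**Figure D4:**
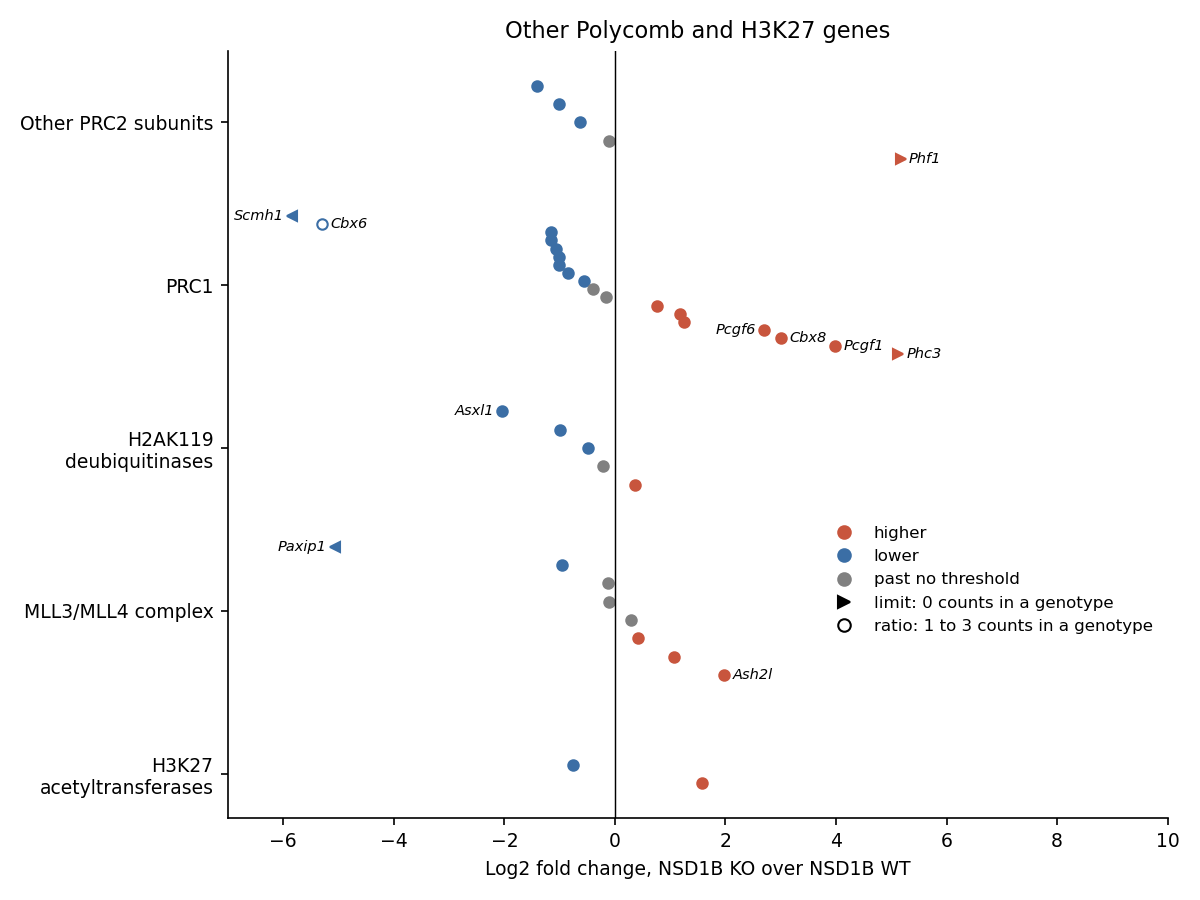
Log2 fold change of NSD1B KO over NSD1B WT for the tested genes of the other Polycomb and H3K27 lists, 1 point per gene. Points are grouped by list, with genes at 0 in a genotype placed at their bound and an open circle for a ratio on 1 to 3 counts. Genes higher and lower in NSD1B KO occur in each list, and 1 gene is not drawn.

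Polycomb repressive complex 1 (PRC1), which ubiquitinates a lysine in the tail of histone H2A and includes readers of methylated H3K27, had 8 genes higher, 9 lower and 2 not called among 19 tested (median log2 fold change -0.40). Of its ring-finger subunits, Pcgf1 had 19 and 30 counts in NSD1B WT against 411 and 337 in NSD1B KO (log2 fold change 3.98, SE 0.20, edgeR adjusted p = 5.25e-23), Pcgf6 rose by 2.70 (SE 0.13) and Bmi1 by 1.17 (SE 0.11). Others of this family, named after their values were seen, fell, Pcgf5 with a log2 fold change of -1.01 (SE 0.16) and Pcgf3 with one of -0.55 (SE 0.18), a call lost without NSD1B WT replicate 1 or NSD1B KO replicate 2. The catalytic partner Rnf2 was higher (0.77, SE 0.10), as was Ring1 (1.26, SE 0.41), whose call was lost in 4 alternatives. The polyhomeotic genes went both ways. Phc3 had 0 counts in NSD1B WT and 57 and 44 in NSD1B KO, at least 35.0-fold higher, and Phc2 was lower, with a log2 fold change of -1.16. Scmh1, another Polycomb group gene, had 103 and 76 counts in NSD1B WT and 0 in NSD1B KO, at least 57.5-fold lower. The readers of H3K27 trimethylation, named after their values were seen, differed too. Cbx8 had 13 and 6 counts against 84 and 65, and Cbx6 had 16 and 25 against 1 and 0.

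Among the enzymes that take this ubiquitin off H2A, and their partners, 1 gene was higher and 3 were lower of 5 tested. Mysm1 had 517 and 491 counts in NSD1B WT against 263 and 226 in NSD1B KO (log2 fold change -0.99, edgeR adjusted p = 1.06e-10) and Usp16 a value of -0.49. Asxl1, named after its values were seen, had 112 and 97 counts against 32 and 17. The rise of Asxl2 (0.37) was not called without NSD1B WT replicate 1, without NSD1B KO replicate 1 or by DESeq2. Of the MLL3/MLL4 complex that holds UTX, 3 genes were higher, 2 were lower and 3 were not called of 8 tested. Paxip1 had 54 and 50 counts in NSD1B WT and 0 in NSD1B KO, at least 33.4-fold lower. The methyltransferase gene Kmt2d was lower (-0.96, edgeR adjusted p = 1.30e-04), and Rbbp5 (1.06), Dpy30 (0.42) and Ash2l (1.98), the last named after its values were seen, were higher. The acetyltransferases that compete with PRC2 for H3K27 moved apart. Crebbp had 155 and 173 counts against 472 and 474 (log2 fold change 1.58, SE 0.13, edgeR adjusted p = 8.75e-16), and Ep300 had 253 and 302 against 165 and 151 (-0.76, SE 0.15, edgeR adjusted p = 8.16e-06).

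Genes known as Polycomb targets were mostly not counted, and their H3K27 mark in these cells was not measured. Of 20 such genes, 15 had no count in any library, Hox genes and Cdkn2a among them, which allows at most 0.2073 CPM in NSD1B WT and 0.2152 CPM in NSD1B KO. Of the 3 tested, 2 were higher and 1 was lower. Prdm1, the regulator of plasma cell differentiation, had 17 and 21 counts in NSD1B WT and 59 and 52 in NSD1B KO (log2 fold change 1.59, SE 0.34, edgeR adjusted p = 3.67e-05). Irf4, which acts beside it, had a value of 0.32 (SE 0.12, edgeR adjusted p = 0.0110) that lost its call in 5 alternatives, and Gata6 one of -2.55 (SE 0.54, edgeR adjusted p = 2.95e-05), lost without NSD1B WT replicate 1. Cdkn1a (2, 5, 3 and 1 counts) and Pax6 (5, 5, 0 and 0) were too low to test. Plasma cell markers summed to 129 to 146 CPM in NSD1B WT and 99.3 to 102 CPM in NSD1B KO, with Sdc1 at 0. Most of this sum was Jchain, at 144 and 126 CPM in NSD1B WT and 93.9 and 91.6 CPM in NSD1B KO. Prdm1, the other counted marker, went the other way.

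Because EZH2 is known from dividing and germinal centre B cells, genes of those states were set beside it. Of 22 proliferation genes 15 were tested, and in NSD1B KO 2 were higher, 10 were lower and 3 were not called. With genes at 0 placed at their bound, the median log2 fold change was -3.79. This value is itself the bound of a gene at 0 and not a measured change. Over all genes tested, 37.1% were higher and 41.1% were lower. Of these 11657 genes, 2203 had 0 counts in both libraries of 1 genotype, NSD1B WT or NSD1B KO. Like Ezh2, 7 of the 15 proliferation genes had at least 10 counts in each NSD1B WT library and 0 in both NSD1B KO libraries. These 7 passed the filter through NSD1B WT alone. Mki67, the common marker of cycling cells, had 19 and 24 counts in NSD1B WT (at least 13.8-fold lower), Top2a 22 and 40 (at least 19.9-fold), and Aurka 57 and 42 (at least 31.8-fold). The mitotic genes Ccnb2 with 209 and 251 counts (at least 148-fold), Cdk1 with 130 and 141 (at least 87.0-fold) and Ccnb1 with 84 and 113 (at least 63.2-fold) were also at 0 in NSD1B KO, as was Aurkb (19 and 24, at least 13.8-fold). Birc5 was lower without reaching 0 (log2 fold change -1.19), and E2f2, named after its values were seen, had 137 and 116 counts against 7 and 7.

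**Figure D5:**
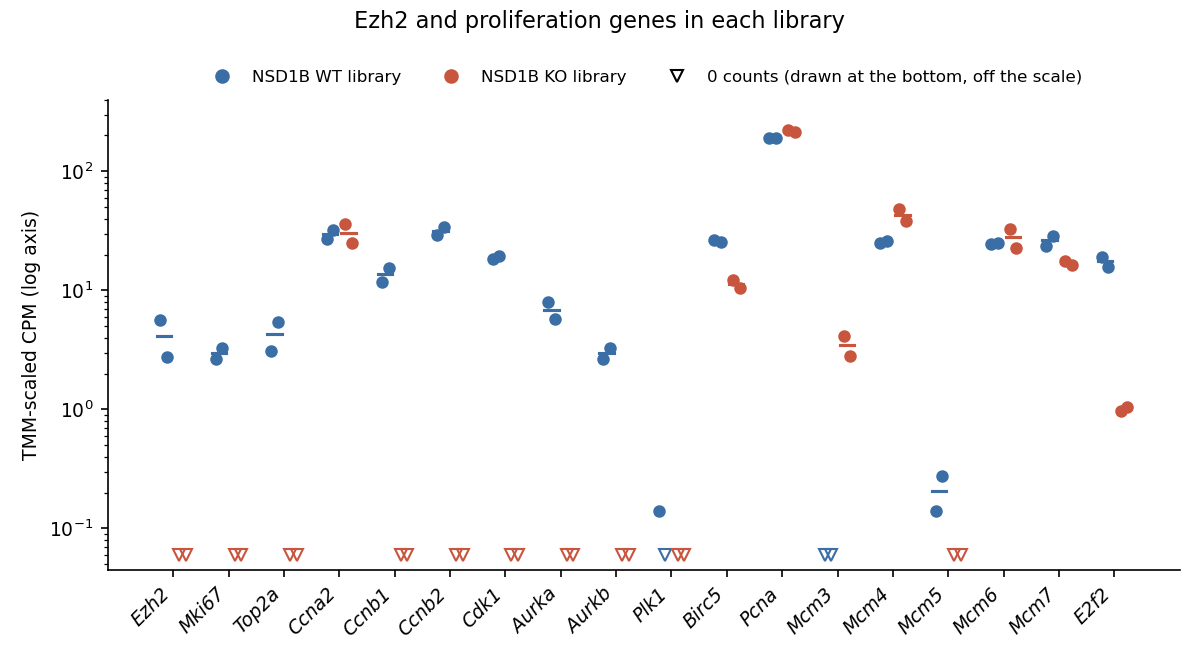
Level of Ezh2 and the counted proliferation genes in each library, in TMM-scaled CPM on a log axis, with the mean of each genotype as a bar and libraries at 0 drawn at the bottom, off scale. Ezh2 and 7 proliferation genes with at least 10 counts in each NSD1B WT library are at 0 in both NSD1B KO libraries, whereas Mcm3 is at 0 in both NSD1B WT libraries.

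Other genes of the same list did not follow. Mcm3, a subunit of the replicative helicase, had 0 counts in NSD1B WT and 30 and 19 in NSD1B KO, at least 17.0-fold higher, and Mcm4 was higher by 0.77 on the log2 scale. Mcm7 was lower (-0.64), a call lost when the trend with exon length and GC content was removed. Pcna had 1375 and 1384 counts against 1590 and 1440 (0.19, edgeR adjusted p = 0.0325), which is under the fold limit, and Ccna2 had a value of 0.05 (edgeR adjusted p = 0.776). Of the germinal centre genes, 2 of 4 tested were lower and 2 were higher. Fas, a death receptor that marks germinal centre B cells, had 43 and 59 counts in NSD1B WT and 0 in NSD1B KO, at least 32.7-fold lower. Rgs13 had 0 in NSD1B WT and 163 and 124 in NSD1B KO, at least 99.3-fold higher, and Bcl6, the master regulator of germinal centre B cells, rose by 1.61 (SE 0.26, edgeR adjusted p = 3.14e-07). Thus Ezh2 shared its counts of 0 with some genes of cycling and germinal centre cells, while others of both lists were higher in NSD1B KO.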

How the data were processed

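RNA from sorted B220+ cells was sequenced in 4 libraries, 2 per genotype, with genotypes taken from the labels. The deposited values are raw counts of reads for each gene, with no normalization by the authors. Their processing notes name Bowtie2, Cufflinks and mm10. No source read here names the counting program, whether it used strand, or the gene models. Reads on no gene made up 44.3% to 44.6%, and those not unique 11.2% to 13.2%, and both stayed out of library sizes. Identifiers matched GENCODE M21 for 99.53% of genes.

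Counts were scaled by TMM and tested with the quasi-likelihood test of edgeR 4.0.16 in R 4.3.3, on genes kept by filterByExpr (minimum count 10, minimum total 15), with Benjamini-Hochberg adjustment. The fold limit of 1.2 and the limit of 0.05 follow the study's Methods, with p taken as adjusted. With 2 libraries per genotype, the common dispersion was 0.0054, a CV of 0.0735 between libraries. A gene at 0 in a genotype was set to 3 counts over the group for a bound. The other genotype entered at its pooled level, so a bound leaves out the spread between its libraries. Counting intervals are exact binomial at 95% and cover counting error only. Levels per kilobase are TMM-scaled CPM divided by the merged exon length.

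The members and gene lists were chosen with earlier results of these data known. Genes named were all members, Nsd1, list genes at 0 in both libraries of 1 genotype with at least 10 counts in each library of the other, up to 4 further called genes per list with the largest change at a mean log2 CPM of at least 3, the sex-linked genes, the Polycomb targets with a count, and the 3 genes nearest in pattern to Ezh1 and to Ezh2. Genes outside this rule are named with their values as list members, and a few list genes are counted but not reported by name here. Alternatives were other scalings and filters, each library left out, the replicate block, a length and GC trend removed, a stricter threshold, DESeq2 1.42.0 and limma-voom (limma 3.58.1). RefSeq protein sequences were not used here.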

Additional observations from a re-analysis of the deposited data

How the results depend on the processing

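Over 15 alternatives, 6 members were higher in each, and 2 were lower in each except with the filter of at least 1 CPM in all 4 libraries, which drops Ezh2 from the test and leaves 1 lower. The same filter drops most of the proliferation genes and leaves 1 higher and 2 lower, against 2 and 10. It tested 8334 genes and called 2855 higher and 2991 lower over all genes, against 4324 and 4795. A stricter threshold (adjusted p under 1e-05, log2 fold change beyond 0.5) left 11 of the other Polycomb and H3K27 genes lower, against 18. No member changed sign or call in a setting that tested it. With each library left out the log2 fold change of Kdm6a ranged from 0.85 to 1.33, and over all alternatives Mtf2 ranged from 0.06 to 0.30 with an adjusted p of 0.0814 to 0.752. The highest adjusted p of a called member was 0.0165, for Kdm6b in limma-voom. The labels number the libraries 1 and 2 in each genotype, and the deviations of libraries with the same number correlated at 0.0645, so the number was not taken as a pairing. With the replicate block, 4254 genes were higher and 4706 lower over all genes, and 6 and 2 members, and no member's call changed. Removing the trend with exon length and GC content moved the median log2 fold change of all genes by 0.165, and calls with that trend removed and the replicate block were 4732 higher and 4146 lower. Genes at or below 3 counts over a genotype, Phf19 among them, are not measurable at this depth.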
